A study of Mus musculus with 8 samples.

Results

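The IL-6 family of cytokines and receptors was followed as 9 genes, taken by symbol from the deposited gene tables, out of 54838 genes in all. Il11, Il6, Lif and Clcf1 encode ligands. Il11ra1 and Il6ra encode the receptors that bind IL-11 and IL-6. Il6st, Lifr and Osmr encode the chains that carry the signal into the cell. The 3H3PM cells were a mouse hepatocellular carcinoma line with Trp53 knocked out by CRISPR/Cas9 and ectopic MYC, whose promoter and species the sources used here do not give. They were grown as tumours in nude mice, which lack mature T cells but keep other immune cells, and 7 subclones isolated from those tumours (numbers 1, 2, 3, 6, 7, 8 and 9) gave 1 RNA-seq library each after culture. The 3H3P cells, with the same Trp53 knockout and without the added MYC, gave 1 library. Both descend from 3H3, a line from a liver tumour of a C57BL/6 mouse without MC4R kept on a high-fat diet, and 3H3 carries an Hras mutation. The design names the comparison of these groups. Added MYC, passage through a mouse and subcloning go together in it and cannot be told apart.

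The cytokines of this family share a signalling chain, gp130, the product of Il6st. IL-6 and IL-11 first bind a private receptor (IL-6 receptor alpha or IL-11 receptor alpha) and then pair gp130 molecules, whereas LIF brings gp130 together with the LIF receptor and oncostatin M can use the oncostatin M receptor. Clcf1 encodes a ligand that acts through the CNTF receptor alpha, gp130 and the LIF receptor. JAK kinases bound to these chains activate STAT3, which in liver drives the acute phase response. IL-11 is known in liver from injury, fibrosis and tumours.

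Promoter sequence is shown for Il11 and for Lifr and Lif, the 2 members whose Pearson's r with Il11 over the subclones passed, as described below. The Lif relation rests on subclones 6 and 8. Osmr, related to Il11 by rank only, is not shown, and its promoter had no match to any motif searched. Each stretch is the 250 bases before a RefSeq start (GRCm38.p6), written 5′ to 3′ on the strand of the gene. Il11 has a downstream start, used by the long transcript described below, and an upstream start, and Lifr also has 2 RefSeq starts. Annotated transcripts Lifr-203 (from position 7154353) and Lif-201 (from position 4267095) begin elsewhere, and the bases before them are not shown. Capitals mark a match to the AP-1 motif TGANTCA.
Il11, downstream start, chr7:4778142-4778391, minus strand: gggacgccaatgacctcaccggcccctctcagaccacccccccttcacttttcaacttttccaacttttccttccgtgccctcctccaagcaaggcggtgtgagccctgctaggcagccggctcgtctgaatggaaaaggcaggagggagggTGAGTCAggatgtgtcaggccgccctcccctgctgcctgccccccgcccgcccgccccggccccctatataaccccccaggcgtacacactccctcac
Il11, upstream start, chr7:4782858-4783107, minus strand: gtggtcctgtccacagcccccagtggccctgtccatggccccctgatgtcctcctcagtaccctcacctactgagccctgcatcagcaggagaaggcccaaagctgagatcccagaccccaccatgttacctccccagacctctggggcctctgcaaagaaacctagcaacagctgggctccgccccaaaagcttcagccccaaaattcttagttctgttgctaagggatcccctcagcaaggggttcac
Lif, chr11:4257318-4257567, plus strand: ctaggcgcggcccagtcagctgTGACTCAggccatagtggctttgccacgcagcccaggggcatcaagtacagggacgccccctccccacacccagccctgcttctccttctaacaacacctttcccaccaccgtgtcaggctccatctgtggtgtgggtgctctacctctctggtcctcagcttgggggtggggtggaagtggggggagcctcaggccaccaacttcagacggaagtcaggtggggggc
Lifr, first start, chr15:7129322-7129571, plus strand: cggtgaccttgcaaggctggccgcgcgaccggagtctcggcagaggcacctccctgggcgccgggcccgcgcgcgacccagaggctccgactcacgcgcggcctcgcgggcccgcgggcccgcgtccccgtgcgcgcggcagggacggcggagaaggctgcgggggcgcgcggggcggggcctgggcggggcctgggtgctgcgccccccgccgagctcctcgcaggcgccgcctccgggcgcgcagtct
Lifr, second start, chr15:7140292-7140541, plus strand: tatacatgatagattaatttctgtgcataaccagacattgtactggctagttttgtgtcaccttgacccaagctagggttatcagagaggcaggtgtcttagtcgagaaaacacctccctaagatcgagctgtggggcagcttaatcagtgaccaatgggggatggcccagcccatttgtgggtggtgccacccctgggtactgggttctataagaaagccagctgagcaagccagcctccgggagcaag

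The match in Il11 begins 98 bases before the downstream start and the match in Lif 228 bases before its start. The RefSeq table matched 8 of the 9 genes and held 11 promoters for them, and 3 of these 11 had the AP-1 letters, the other being that of Il6, 249 bases before its start. Over all 32851 promoters of the same length, searched on both strands, 6.75% had it. The STAT motif TTCNNNGAA was in 0 of the 11 (7.02% of all promoters) and the TATA motif TATAAA in 0 of the 11 (12.4%). The E-box CACGTG was in 1, that of Il6ra (6.02%), and the C/EBP motif TTGCNNAA in 1, that of Il6 (9.56%). No match overlapped another. These matches describe letters only and show no binding.

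Libraries held 12838521 to 17987068 expected counts, and all 9 genes had counts in every library. Mitochondrial genes took 1.97% to 2.31% of counts in the subclones and 3.18% in the library labelled 3H3P. Hepatocyte markers were nearly absent from the subclones. Alb reached 2.08 CPM (counts scaled to a common library size) against 3.67 CPM in the library labelled 3H3P. The 6 such markers summed to 3.85 to 27.6 CPM in the subclones against 1333 CPM in that library. Most of its sum was Apob (586 CPM) and Trf (688 CPM), with Hnf4a at 54.2 CPM, and Ttr and Apoa1 were at 0.187 and 0 CPM there. The 4 epithelial markers summed to 73.1 to 223 CPM in the subclones, against 1761 CPM in the library labelled 3H3P. Krt8 was at 13.6 to 53.1 CPM, Krt18 at 38.2 to 100.2 CPM and Cdh1 at 13.1 to 82.6 CPM in the subclones, against 543, 690.4 and 527 CPM in the library labelled 3H3P, while Epcam was at 0 counts in every library. The part of these marker differences in the differences between the groups was not tested. Trp53 transcript was at 53.9 ± 7.45 CPM in the subclones (SD, n = 7) and 212 CPM in the library labelled 3H3P, and a frameshift need not remove a transcript. Mouse Myc was at 6.54 ± 3.58 CPM in the subclones and 85.2 CPM in the library labelled 3H3P, so counts of the mouse gene give no sign of the added MYC, and "labelled 3H3P" is used as a name. Because that group has 1 library, its spread was assumed to equal that of the subclones, and p-values measure the spread between isolates.

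Osmr and Il6 were the 2 of the 9 genes that fell in the subclones, and 0 of 9 rose, by edgeR's quasi-likelihood test with p adjusted by Benjamini-Hochberg over 14634 genes (called at an adjusted p under 0.05). Over all genes tested 11.8% were lower and 7.33% higher, 19.1% in either direction. At an unadjusted p under 0.05 there was 1 gene higher, Il11, and 3 lower, Il6, Clcf1 and Osmr. DESeq2 called 1 higher, Il11, and 1 lower, Osmr, while limma-voom called 0 higher and 2 lower. The median log2 fold change of the 9 was -0.05, against 0.03 over all genes tested. The library labelled 3H3P lay outside the range of the subclones for 5 of the 9 genes, below it for Il11 and Il11ra1 and above it for Il6, Clcf1 and Osmr, where 57.4% of all genes tested lay outside, with every subclone higher in 27.1% and every subclone lower in 30.4%. In cultured cells of 1 line, fewer cells expressing a gene and less RNA per cell cannot be told apart.

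**Figure D1:**
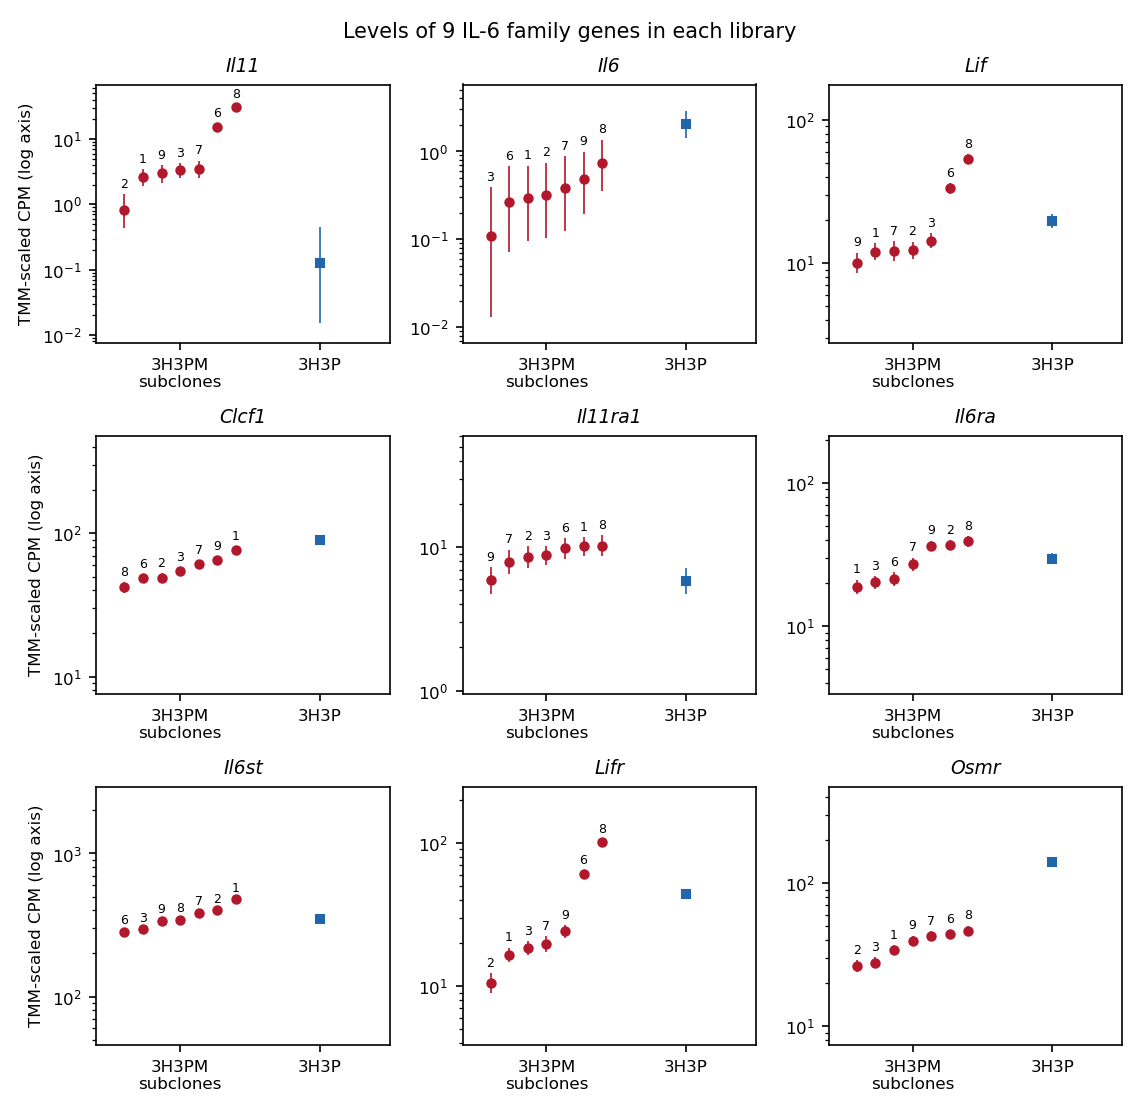
Level of each of the 9 genes in CPM on a log axis, with the 7 3H3PM subclones (red, numbered and sorted by level) left of the library labelled 3H3P (blue) and bars for the 95% exact Poisson interval. Il11 spreads over a 37.5-fold range in the subclones, all above the 3H3P library, and Osmr is below it in 7 of 7 subclones.

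Among the ligands, Il11 (chromosome 7, 4772373 to 4782859, minus strand, GRCm38), the cytokine in the title of the series, was the most variable member. It had 44, 13, 61, 229, 46, 420 and 43 counts in subclones 1, 2, 3, 6, 7, 8 and 9 and 2 counts in the library labelled 3H3P. Subclones 6 and 8 were the high ones, at 15.2 and 31.1 CPM, and the other 5 were at 0.83 to 3.51 CPM, against 0.12 CPM in the library labelled 3H3P (95% exact Poisson interval 0.02 to 0.45). The lowest subclone, number 2, had an interval of 0.44 to 1.42 CPM, which overlaps that of the 3H3P library. The ratio of summed counts was 64.4 with a counting interval of 17.8 to 532, and Il11 was higher in 7 of 7 subclones. The log2 fold change was 6.00 with an SE of 2.64, and edgeR gave an adjusted p of 0.143 (0.00373 with DESeq2, up to 0.43 over the alternatives). Its SD of log2 CPM over the subclones was 1.68, and 228 of 12151 genes with a mean of at least 1 CPM (1.88%) had a larger one.

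Lif, encoding leukaemia inhibitory factor (chromosome 11, 4257557 to 4272514), had a lowest value of 10.0, a median of 12.3 and a highest of 53.6 CPM in the subclones, against 19.7 CPM in the library labelled 3H3P. Subclones 6 and 8, the ones high in Il11, were at 33.2 and 53.6 CPM, above the 3H3P library, and the other 5 were below it. The difference did not pass the test (log2 fold change 0.10, SE 0.87; edgeR adjusted p = 0.949). Its SD over the subclones was 0.91, exceeded by 8.07% of genes.

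Il6, the cytokine that names the family (chromosome 5, 30013114 to 30019981), was low in the subclones with 2 to 10 counts each (38 in all), against 33 counts in the library labelled 3H3P. That is 0.371 ± 0.199 CPM in the subclones (SD, n = 7) and 2.05 CPM in the 3H3P library, and 0 of 7 subclones were higher. It fell by 2.46 on the log2 scale (SE 0.70, edgeR quasi-likelihood adjusted p = 0.0380). The call was lost in 8 of 14 alternatives with a value: with DESeq2 (0.077), with no filter on low counts (0.0543) and without any one of subclones 1, 2, 3, 6, 7 and 9 (up to 0.0642). It was kept without subclone 8 (0.0232).

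Clcf1, the cardiotrophin-like ligand, lies on chromosome 19 (4214238 to 4223490) and was the most abundant of the 4 ligands by TPM, an abundance per transcript length, in every library except subclone 8, where Lif was higher. It ran from 41.9 in subclone 8 to 77.1 CPM in subclone 1, with a median of 54.9 CPM, against 89.8 CPM in the library labelled 3H3P. Every subclone was below the 3H3P library, but the log2 fold change of -0.66 (SE 0.28) did not pass the edgeR test (adjusted p = 0.127, 0.0531 to 0.19 over the alternatives). Another protein-coding gene overlaps Clcf1 on the same strand, so its reads may be shared with that gene.

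**Figure D2:**
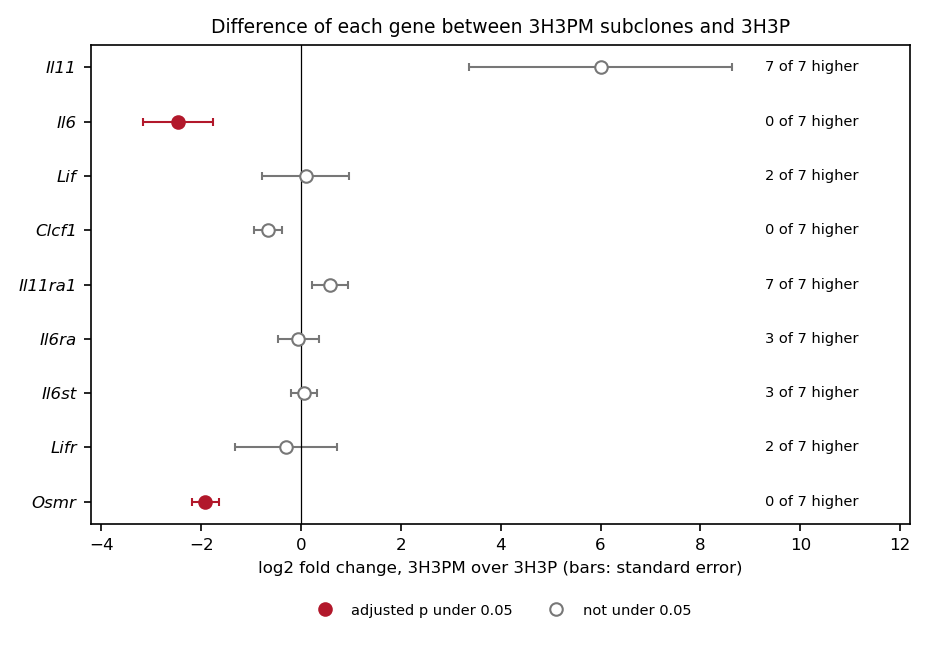
Log2 fold change of the 3H3PM subclones over the library labelled 3H3P for the 9 genes, with bars for the standard error of the edgeR fit and filled points for adjusted p under 0.05. Osmr at -1.91 and Il6 at -2.46 are the 2 filled points, and Il11 at 6.00 has the longest bar, an SE of 2.64.

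Among the receptors, the private chain for IL-11 was higher in 7 of 7 subclones without passing the test. Il11ra1 (chromosome 4, 41699989 to 41769474) was at 5.88 to 10.3 CPM in the subclones with a median of 8.79 CPM, and at 5.85 CPM in the library labelled 3H3P. The lowest subclone, number 9, was level with the 3H3P library within counting error. The log2 fold change was 0.59 (SE 0.36; edgeR adjusted p = 0.283, 0.181 to 0.388 over the alternatives). Reads of Il11ra1 can be shared with near-identical Il11ra2 copies, which held 0.82 expected counts each in subclone 7, and several genes overlap it. Il6ra, the IL-6 binding chain (chromosome 3, 89864059 to 89913196), was at 18.9 to 39.1 CPM in the subclones and 29.6 CPM in the library labelled 3H3P, with 3 of 7 subclones higher (edgeR adjusted p = 0.943).

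Osmr, the oncostatin M receptor chain (chromosome 15, 6813577 to 6874969), had the smallest p of the 9. It was at 26.4 to 46.6 CPM in the subclones, with a median of 39.7 CPM, against 140 CPM in the library labelled 3H3P. The groups did not overlap, with the highest subclone, number 8, far below the 3H3P library. Osmr fell by 1.91 on the log2 scale (SE 0.27, edgeR quasi-likelihood adjusted p = 0.00184), was lower in 7 of 7 subclones and was called in 15 of 15 alternatives (adjusted p 8.39e-07 to 0.0309).

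Lifr, the LIF receptor chain, (chromosome 15, 7090614 to 7197489) was also uneven between subclones. It had a lowest value of 10.5, a median of 19.7 and a highest of 101 CPM in the subclones, against 44.1 CPM in the library labelled 3H3P. Subclones 6 and 8, at 60.4 and 101 CPM, were above the 3H3P library and the other 5 were below it (log2 fold change -0.30, SE 1.02, edgeR adjusted p = 0.863). Its SD of 1.14 was exceeded by 5.15% of genes. Il6st, encoding the shared gp130 (chromosome 13, 112464070 to 112510086), was at 361 ± 67.6 CPM in the subclones (SD, n = 7) and 348 CPM in the library labelled 3H3P, with 3 of 7 subclones higher (log2 fold change 0.05, SE 0.26, edgeR adjusted p = 0.908).

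Per transcript length, Il6st was the most abundant member in every library. Over the subclones the order of mean log2 TPM was Il6st, Clcf1, Il11ra1, Osmr, Lif, Il6ra, Lifr, Il11 and Il6, with TPM of 65.0 ± 12.8 for Il6st, 35.4 ± 8.23 for Clcf1, 14.5 ± 2.61 for Il11ra1 and 0.686 ± 0.279 for Il6 (SD, n = 7). In the library labelled 3H3P, Osmr ranked 3, at 50.6 TPM, and Il11 ranked 9, at 0.15 TPM. Of the 8 pairs of neighbours in the order, 4 differed in 7 of 7 subclones by an exact two-sided sign-flip permutation test (adjusted p = 0.03125 each, from the smallest p that 7 subclones allow, 0.015625): Il6st over Clcf1, Clcf1 over Il11ra1, Lifr over Il11 and Il11 over Il6. The 4 pairs from Il11ra1 to Lifr did not (exact adjusted p = 0.125 to 0.969), so the order within each of these pairs is not settled. Genes that are not neighbours in the order were not tested against each other. Among them, Il11ra1 was above Il6ra in every subclone, with 53.1% to 76.0% of the summed TPM of both.

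Ligand and receptor levels were set against each other per length. The TPM ratio of Il11 to Il11ra1 was 0.129, 0.0519, 0.189, 0.686, 0.262, 1.72 and 0.225 in subclones 1, 2, 3, 6, 7, 8 and 9, against 0.0159 in the library labelled 3H3P. It was above 1 only in subclone 8. Il11 made up 1.84% to 31.7% of the TPM of the 4 ligands in the subclones and 0.218% in the 3H3P library, while Clcf1 made up 32.1% to 82.8% and 80.8%. The ratio of Il6 to Il6ra was 0.0522 to 0.110 in the subclones and 0.346 in the 3H3P library. Of the TPM of the 3 signalling chains, Il6st took 51.0% to 87.2% in the subclones and 44.6% in the 3H3P library, and Osmr 10.4% to 23.7% and 37.7%. These shares have no test. By the mean lengths given below, the TPM of Il11ra1 and Clcf1 also counts retained-intron transcripts, here and in the order above.

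**Figure D3:**
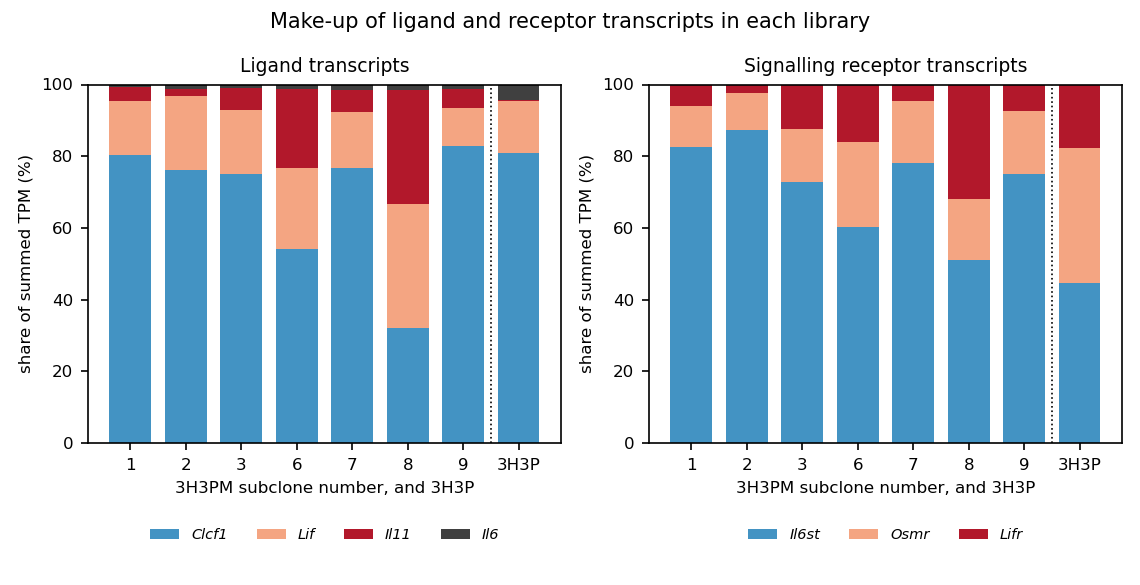
Share of each ligand in the summed ligand TPM and of each signalling chain in the summed receptor TPM, in percent, per library, with the 3H3PM subclones left of the library labelled 3H3P. Il11 reaches 31.7% of ligand TPM in subclone 8, and Osmr takes 37.7% of receptor TPM in the 3H3P library.

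Over the 7 subclones Lifr and Lif were high where Il11 was high. Pearson's r of log2 CPM with Il11 was 0.985 for Lifr (exact permutation p = 0.00179, adjusted p = 0.0125 over 7 relations) and Spearman's rho was 0.893 (adjusted p = 0.0431). Without subclones 6 and 8, the pair farthest from the Il11 median, r was 0.901 over 5 subclones. For Lif r was 0.910 (exact permutation p = 0.0109, adjusted p = 0.0382), rho was 0.679 (adjusted p = 0.256), and r without subclones 6 and 8 was 0.012, so this relation rests on those subclones. For Osmr r was 0.785 (exact permutation adjusted p = 0.087) with rho of 0.893 (adjusted p = 0.0431) and r of 0.635 without subclones 6 and 8. The other 4 relations, with Clcf1, Il6st, Il11ra1 and Il6ra, had exact permutation adjusted p of 0.382 to 0.910 for r. Il6 was too low to compare. Leaving out subclone 6 or subclone 8 took the exact adjusted p for Lifr to 0.0875 with r of 0.981 and 0.969. For Lif the exact adjusted p was 0.0535 to 0.256 without any one of subclones 3, 6, 7, 8 and 9, and for Clcf1 it was 0.0194 (r = -0.901) without subclone 2.

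Sums of fibroblast and macrophage markers were highest in subclones 8 and 6, but each sum rested on a few of its genes. The 6 endothelial markers summed to 1.06 and 0.741 CPM in subclones 6 and 8 and were highest in subclone 9, at 2.15 CPM. The 6 lymphocyte markers summed to at most 0.0662 CPM. The 8 fibroblast and stellate markers, 5 of them above 1 CPM on average in the subclones, summed to 288 CPM in subclone 6 and 502 CPM in subclone 8, against 104 to 158 CPM in the other 5 and 119 CPM in the library labelled 3H3P. The genes behind the sum differed between the groups. Pdgfrb was at 94.4 to 143 CPM in the subclones and 0.747 CPM in the library labelled 3H3P. Pdgfra was at 2.13 to 349 CPM in the subclones, the widest range of the 8, and 0.436 CPM in the library labelled 3H3P. Col1a1, Col1a2, Col3a1 and Acta2 reached at most 18.3 CPM in any subclone. Dcn had 1 count over all subclones and 1868 counts (116 CPM) in the library labelled 3H3P, nearly all of its sum, and Lum had 0 in every library. The 6 macrophage markers summed to 79.7 CPM in subclone 6 and 126 CPM in subclone 8, the 2 highest of a range that began at 32.1 CPM. They summed to 367 CPM in the library labelled 3H3P, mostly Cd14. In the subclones Cd14 was at 23.8 to 102 CPM and Csf1r at 3.77 to 23.5 CPM, with 3 counts of Ptprc and 4 of Adgre1 over all subclones. Mitochondrial genes took 1.97% of counts in each of subclones 6 and 8, the lowest of the 8 libraries. The part of these markers in the Il11, Lif and Lifr values was not tested.

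**Figure D4:**
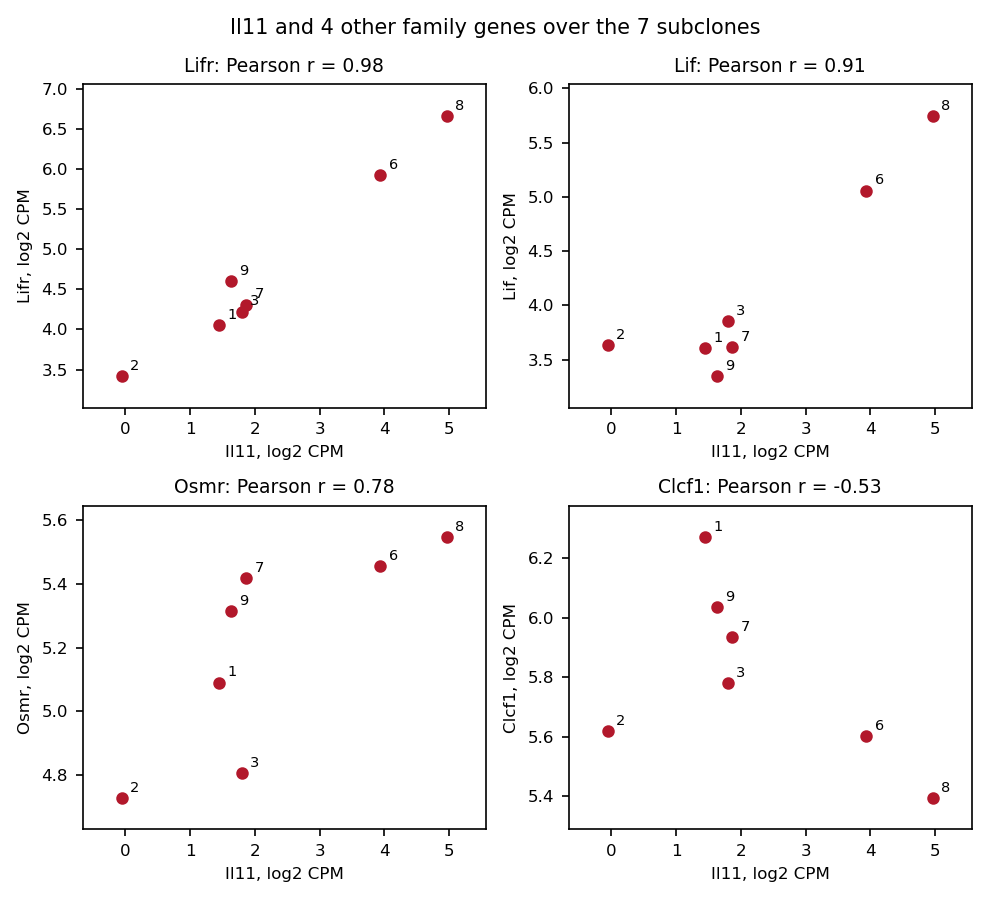
Log2 CPM of Lifr, Lif, Osmr and Clcf1 against log2 CPM of Il11 over the 7 3H3PM subclones, with subclone numbers. Subclones 6 and 8 lie at the upper right for Lifr and Lif, and without them r was 0.901 for Lifr and 0.012 for Lif.

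Of 11041 genes with a mean of at least 1 CPM in the subclones, pseudogenes and Gm and Rik symbols aside, Lifr had rank 15 in likeness to Il11, Lif rank 385 and Osmr rank 1252, as a description over 7 subclones. The 5 most like Il11 were Itm2c (r = 0.998), Atg4a (0.994), Brsk1 (0.993), Trim24 (0.992) and Rps6ka2 (0.992). Atg4a encodes an autophagy protease, and Brsk1 and Rps6ka2 encode kinases. Atg4a was at 24.7 and 33.6 CPM in subclones 6 and 8 and 9.39 to 16.7 CPM in the other 5. In the library labelled 3H3P, which did not enter r, Atg4a was at 33.3 CPM, level with subclone 8, though Il11 was lowest there. The 3 least like were Ttc27 (r = -0.993), Cbll1 (-0.993) and Nup54 (-0.991), the last encoding a nuclear pore protein. The 3 most like Lifr were Mapkapk2 (r = 0.998), a kinase activated by p38, Nlgn2 (0.997) and Fndc3b (0.994).

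The deposited mean transcript length, which RSEM weights by its estimate of each isoform, differed between libraries for some members. For Il11 it was 1949 bases in all 7 subclones, the length of transcript Il11-201, which starts at the downstream start at position 4778141 whose promoter is printed above. In the library labelled 3H3P it was 1348 bases, from 2 reads. For Lifr it was 3268 to 7770 bases in the subclones and 2763 bases in the library labelled 3H3P, where annotated transcripts run from 299 to 9655 bases. In subclones 2, 6, 7 and 9 it was 5985 bases or more, above every annotated Lifr transcript but Lifr-203, which begins at neither printed start. Lifr TPM and Lifr counts therefore weigh the subclones differently: subclone 2 had a mean length of 7770 bases and 2.0 TPM, and subclone 8 had 3806 bases and 39.9 TPM. Lif was at 2151 to 3909 bases in the subclones and 2895 bases in the 3H3P library. Il6st was at 7855 to 8440 bases in the subclones and 8159 bases in the 3H3P library. Il11ra1, at 1003 to 1250 bases in the subclones, was shorter than its protein-coding transcripts of 1768 to 2009 bases. Clcf1, at 2471 to 2681 bases, was longer than its protein-coding transcript of 1847 bases. Retained-intron transcripts therefore enter the TPM of both genes, and their part in the order and ratios above was not tested.

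**Figure D5:**
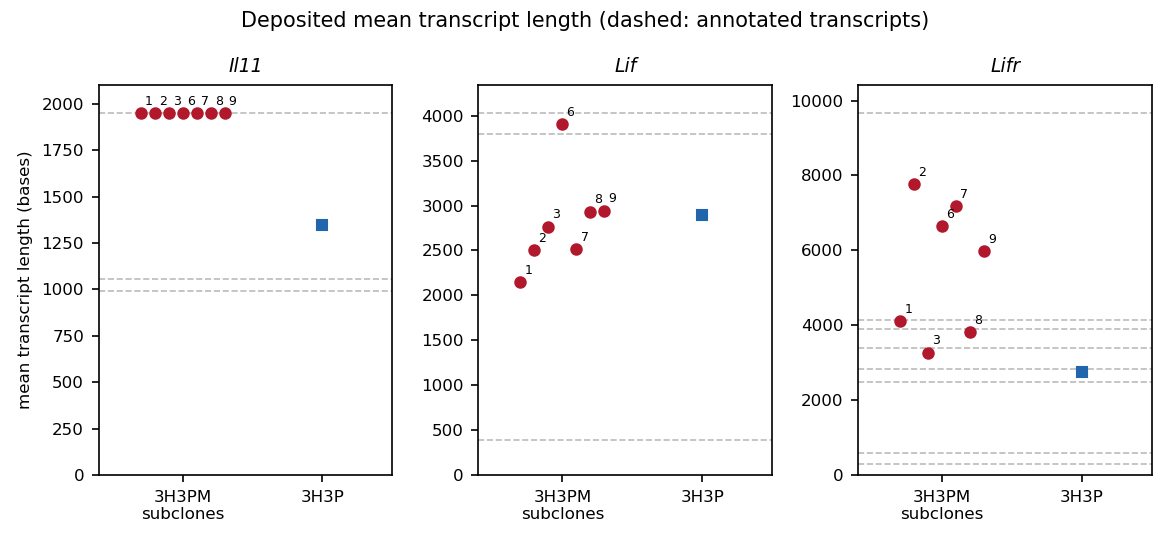
Mean transcript length in bases of Il11, Lif and Lifr, by library, with dashed lines at the annotated transcripts and with the 3H3PM subclones left of the library labelled 3H3P. Il11 is at 1949 bases in every subclone, and Lifr spreads from 3268 to 7770 bases.

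Of the 12 other genes of the family, 4 passed the filter on low counts. In the subclones edgeR called 1 higher, Il27ra, and 0 lower, where 7.33% of all genes tested were higher and 11.8% lower. At an unadjusted p under 0.05 edgeR had 1 lower (Ctf1), and DESeq2 called 0 lower. Il27ra, a receptor chain for IL-27, had 2.31 to 6.08 CPM in the subclones and 0 counts in the library labelled 3H3P, at least 20.8-fold higher (against 3 counts over the group; edgeR adjusted p = 0.00203), and was called in 14 of 14 alternatives. Ctf1 was at 1.82 ± 0.425 CPM in the subclones and 4.17 CPM in the 3H3P library (adjusted p = 0.094), and Cntf at 0.959 ± 0.458 and 1.43 CPM (adjusted p = 0.633). Cntfr, encoding the CNTF receptor alpha, and Il31 had 0 counts in every library. Over all subclones Ctf2 and Il31ra had 6 counts each and Osm and Il27 1 each, with 0 in the 3H3P library, and Ebi3 had 2 counts against 1.

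Downstream of gp130, 1 of 12 JAK-STAT genes rose and 2 fell, with a median log2 fold change of -0.02. Over all genes tested 7.33% were higher and 11.8% lower, 19.1% in either direction, with a median of 0.03. Shc1, an adaptor, rose by 1.02 on the log2 scale (edgeR adjusted p = 0.0333). The kinase gene Jak2 fell by 1.70 (0.0281), while Gab1, an adaptor, was at 1.09 (0.151). Of 15 alternatives, 13 called Shc1 and 13 called Jak2. Both TPM settings lost Jak2 (limma adjusted p = 0.056 and 0.0612), and Shc1 was lost without subclone 3 or 9 (edgeR adjusted p up to 0.0571). Among 11 negative regulators 3 rose and 1 fell, with a median of 0.33: Pias2 (1.04, adjusted p = 0.0180), Socs7 (0.75, 0.0319), Pias1 (0.62, 0.0456) and Cish (-2.86, 0.000704), a feedback gene of STAT5. Cish and Pias2 were called in 15 of 15 alternatives, Socs7 in 13 and Pias1 in 6. Socs7 was lost without subclone 3 or 6 (edgeR adjusted p up to 0.0613) and Pias1 without any one subclone (0.0507 to 0.0752). Stat3 itself had a log2 fold change of 0.05 (0.928) and its feedback gene Socs3 0.17 (0.884), both named after their values were seen. These group values hide a spread between subclones. In subclones 6 and 8 Socs3 was at 85.0 and 141 CPM, against 33.9 to 64.7 CPM in the others. Stat3 was at 204 and 240 CPM there, against 113 to 199 CPM. Jak2 was also highest in these subclones, at 111 and 153 CPM, whereas Cish was highest in subclone 1, at 6.75 CPM. The relation of these genes to Il11 was not tested.

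Of 24 STAT3-responsive genes, 23 were tested, 0 rose and 8 fell by edgeR, with a median of -0.89 against 0.03 over all genes, of which 7.33% were higher and 11.8% lower. At an unadjusted p under 0.05 there were 2 higher, Hp and Mcl1, which DESeq2 called. The 4 with the smallest p were Il4ra, the IL-4 receptor (-2.93, edgeR adjusted p = 0.000102), Ccnd1, cyclin D1 (-4.29, 0.00103), Bcl3 (-1.49, 0.00178) and Myc (-3.71, 0.00206). The list mixes acute phase, survival and cycle genes that other pathways also regulate. Here too the group values hide a spread, as in 2 genes named after their values were seen. Saa3 was at 1151 and 1895 CPM in subclones 6 and 8, 8.43 to 221 CPM in the others and 1193 CPM in the library labelled 3H3P. Lcn2 was at 258 and 331 CPM, 8.43 to 61.5 CPM and 2217 CPM. Hp was highest in subclone 8, but subclone 3 was level with subclone 6. The relation of these genes to Il11 was not tested. Of 5 genes for the shedding of receptors and ligands, 0 were called in either direction by edgeR, with 1 lower at an unadjusted p under 0.05 and by DESeq2, Adam9. Adam9 was at -0.85 (0.0692), Adam10 at -0.55 (0.161), Adam17 at -0.45 (0.253) and Rhbdf1 at -0.29 (0.435).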

How the data were processed

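RNA-seq libraries of 7 3H3PM subclones and 1 3H3P culture were analysed from the gene tables as deposited; other subclones were not analysed here. Per the labels' protocols, total RNA with a RIN above 7 went into a directional NEBNext Ultra library. The submitters' processing notes name the GRCm38 (mm10) build and the tools STAR, RSEM, FastQC and DESeq2; the sources used here give no versions, options or strand setting. Per the file headers, the tables hold RSEM expected counts, TPM, FPKM and mean transcript lengths. The expected counts deposited by the authors divide reads that match several genes, so 3099 to 3459 genes per library were fractional.

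After rounding to integers, the counts entered edgeR 4.0.16 under R 4.3.3: filterByExpr by group, TMM scaling, glmQLFit and glmQLFTest, Benjamini-Hochberg over 14634 genes, called at an adjusted p under 0.05. All 8 libraries entered, with 6 residual degrees of freedom, all from the subclones. CPM are TMM-scaled. The TPM deposited by the authors served to compare genes per length, on log2(TPM + 0.1), and in limma alternatives (3.58.1; pseudocount 0.1 or 1), where fold changes of low genes are understated. The FPKM deposited by the authors served as an alternative for the order of genes. Neighbours in that order were tested with exact sign-flip tests paired within subclone. Il11 was compared with 7 members by log2 CPM (prior count 2) with exact tests over 5040 pairings (scipy 1.17.1). Alternatives were DESeq2 1.42.0, limma-voom, other scalings and filters, and each subclone left out. The edgeR fit was checked on simulated data, and the result of that check is not reported here. Simulated data cannot show the spread of the group without replicates.

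The 9 genes and the gene lists were chosen with earlier results of these data known. Named genes were the 9; up to 4 tested genes of smallest p in each of 5 lists and every other family gene with a count; and the genes most and least like Il11, with those most like Lifr, at a mean of 1 CPM or more. The last group leaves out pseudogenes and symbols of the Gm and Rik kinds. Some genes that the rule names are not reported here, though counts over lists include them. Bounds take 3 counts over the group for 0, and 95% intervals are exact; both cover counting error only. Positions are from the GENCODE annotation of GRCm38, where the versioned identifiers of 8 of the 9 genes matched, and promoters from RefSeq. The separate subclones are isolates, and nothing in the labels says how many animals they came from.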

Additional observations from a re-analysis of the deposited data

Results flagged for a closer look

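Over the 7 subclones, the highest or lowest value of 33 sets of levels and ratios was compared with its neighbour by Dixon's test, and 4 values stood apart. For independent sets of normal values chance alone gives about 1 in 20. These sets share genes and some are skewed, so that rate need not hold here. Lif TPM in subclone 8 was 28.0, with the next subclone at 12.7 TPM. Lifr TPM in subclone 8 was 39.9, with the next at 13.3 TPM. In CPM, which does not use transcript length, neither stood apart: the gap took 0.468 of the range for Lif and 0.449 for Lifr, under the critical 0.568. The ratio of Il11 to Il11ra1 TPM in subclone 8 was 1.72, with the next at 0.686. The ratio of Lif to Lifr TPM in subclone 2 was 3.87 (the other subclones reached 1.89), and the deposited mean length of Lifr was also longest there, at 7770 bases against 3806 bases in subclone 8, which lowers its TPM for a given count. The part of that length in the ratio was not tested.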

How the results depend on the processing

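No called value reversed its direction; the log2 fold changes of Lif, Il6ra and Il6st among the 9 genes, and of Stat3, Socs3, Stat5a and Saa1 among the list genes, changed sign among alternatives, and no alternative called them. Genes called higher numbered 1072 and rose to 1689 with DESeq2; leaving out 1 subclone gave 669 (without subclone 3) to 1185, and the number lower ran from 1322 to 1800 against 1727. The share of calls that were higher was 38.3%, 49.5% with DESeq2 and 50.3% with log2(TPM + 0.1). Scaling by library size alone moved the median of all genes to 0.10 on the log2 scale, against 0.03. Members called higher numbered 0, and 1 with DESeq2 (Il11). Members called lower numbered 2, and 1 with DESeq2, with no filter and with at least 10 counts in every library, where Il6 was not tested; leaving out 1 subclone gave 1 to 2. List genes called higher numbered 5, 8 with DESeq2 and 3 with at least 10 counts in every library, and 2 to 5 with 1 subclone left out; list genes called lower numbered 11, and 7 with log2(TPM + 0.1). With 1 subclone left out, 0 neighbouring pairs passed against 4, since 6 subclones cannot go below an exact p of 0.03125 before adjustment. Members related to Il11 numbered 2, and 0 to 3 with 1 subclone left out: 0 without subclone 6 or 8, 1 without 3, 7 or 9. On log2(TPM + 0.1) Osmr joined them (r = 0.912, exact adjusted p = 0.0125), and without subclone 2 Clcf1 did (r = -0.901, 0.0194). The cause of these changes was not tested. No paired analysis was possible because the 3H3P group has 1 library and shares fewer than 2 replicate numbers with the subclones.

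The 1 library of 3H3P limits every comparison with it, as its own spread is not measured. Il11 in that library rests on 2 counts and Il6 in the subclones on 2 to 10, so their folds are imprecise.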
